A study of Mus musculus with 6 samples.

Results

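The expression of 10 neutrophil granule and myeloid progenitor genes was followed through the RNA-seq libraries of CD27SP NK cells. They are 10 of the 25690 gene symbols in the data. Stages of neutrophil development divide them into 5 early genes (*Mpo*, *Elane*, *Prtn3*, *Ctsg* and *Ms4a3*), 4 late genes (*Ngp*, *Camp*, *S100a8* and *S100a9*) and the transcription factor gene *Cebpe*. They were selected on the difference between genotypes in these same libraries, so every difference between genotypes in these 10 genes is a description and is given without a p-value. How many of them lie past the threshold used for all genes is given as a count, from which nothing is read. CD27SP NK cells, an immature NK cell subset, were sorted as NK1.1+ CD27+ CD11b- CD3- cells in the BM of *Ncr1cre Myc* fl/fl mice and of control mice that were *Ncr1cre Myc* wt/wt (fl/fl and wt/wt in what follows). Each genotype has 3 libraries, with the replicate numbers 1, 2 and 4, and the mice had a C57BL/6 background and were matched for sex and age. Both genotypes carry the Cre recombinase under control of the *Ncr1* locus, which encodes the NK cell receptor NKp46, and they differ in whether *Myc* is flanked by loxP sites. *Myc* can therefore be lost only in cells that express *Ncr1* or descend from such cells.

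Neutrophils arise in the BM from granulocyte-monocyte progenitors, and their granules are filled in sequence. The azurophil granules come first, at the promyelocyte stage, and hold myeloperoxidase (*Mpo*) and the serine proteases neutrophil elastase (*Elane*), proteinase 3 (*Prtn3*) and cathepsin G (*Ctsg*), while the specific and gelatinase granules follow at the myelocyte stage and later, under control of C/EBPε (*Cebpe*). *Ms4a3* encodes a membrane protein of granulocyte-monocyte progenitors, *Ngp* and *Camp* encode neutrophilic granule protein and the antimicrobial peptide cathelicidin, and *S100a8* and *S100a9* encode the calcium-binding proteins that together form calprotectin, an abundant cytosolic protein of mature neutrophils.

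The sequences before the transcription start sites of the genes are shown first. RefSeq (GRCm38.p6) held promoters for 9 of the 10 genes, and the 250 bases before the start were searched on both strands for AGGAAGT, a sequence bound by the ETS factor PU.1 (*Spi1*), for TTNNGCAA, a C/EBP sequence, and for CACGTG, the E-box bound by MYC. The letters AGGAAGT were chosen after the promoters had been read, so their share in these promoters is a description and not a test. AGGAAGT was present in 4 of the 5 early promoters and in 1 of the 4 late promoters, against 7.69% of all 32851 promoters in the table. *Elane* and *Prtn3*, which are neighbours on chromosome 10, carried it on the same strand as the gene, at 84 and 94 bases before the RefSeq start. It lay further away in *Ctsg* (206 bases), *Mpo* (223 bases) and *S100a8* (172 bases, on the opposite strand). TTNNGCAA was found in none of the 5 early promoters and in 2 of the 4 late promoters, those of *Ngp* and *S100a9*, against 9.56% of all promoters. CACGTG was found in none of the 9 promoters, against 6.02% of all promoters. A match or its lack describes these letters in this window only. The following sequences are stretches of these windows that end before the RefSeq start and before the first protein-coding start in GENCODE, which lies upstream of it in some genes, so distances counted from the RefSeq start are longer than those to the end of the stretch. They run 5′ to 3′ on the strand of the gene, and show AGGAAGT or its reverse complement in capitals.
Elane, chr10:79886127-79886246, plus strand: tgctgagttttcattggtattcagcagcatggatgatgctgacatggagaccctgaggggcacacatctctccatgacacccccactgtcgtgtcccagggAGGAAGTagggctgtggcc
Prtn3, chr10:79879494-79879613, plus strand: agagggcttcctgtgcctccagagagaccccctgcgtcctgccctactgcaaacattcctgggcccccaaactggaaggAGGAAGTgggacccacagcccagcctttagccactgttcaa
Ctsg, chr14:56102705-56102824, minus strand: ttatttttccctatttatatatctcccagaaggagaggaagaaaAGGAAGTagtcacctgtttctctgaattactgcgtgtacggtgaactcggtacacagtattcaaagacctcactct
Mpo, chr11:87793534-87793580, plus strand: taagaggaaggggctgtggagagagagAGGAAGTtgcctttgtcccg
S100a8, chr3:90668858-90668977, plus strand: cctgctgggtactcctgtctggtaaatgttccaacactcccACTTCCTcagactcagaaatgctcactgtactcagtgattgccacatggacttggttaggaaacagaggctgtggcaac

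The libraries held between 54550907 and 64962491 estimated counts, except wt/wt replicate 1, which held 8101219. *Myc* itself had 168.8, 172.7 and 142.0 TPM (a level corrected for transcript length) in wt/wt and 50.8, 53.2 and 63.3 TPM in fl/fl libraries, a log2 fold change (fl/fl over wt/wt) of -1.44 (SE 0.15, edgeR quasi-likelihood test, adjusted p = 0.00189). Without replicate 1 it was -1.30 and missed the threshold defined next. The transcript was thus lower but present in all fl/fl libraries. A gene passed the threshold when its adjusted p was below 0.01 and its log2 fold change was 0.5 or more in either direction. Of the genes of the sort gate, *Itgam*, which encodes the CD11b used to exclude cells, did not pass and had 12.1, 14.8 and 11.1 TPM in wt/wt and 14.8, 14.1 and 15.2 TPM in fl/fl libraries.

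All 5 early genes were higher in CD27SP NK cells of fl/fl mice (median log2 fold change 2.70), and no library of one genotype overlapped the other for any of the 5. *Mpo* (chr11:87793581-87804413), whose product makes hypochlorous acid, reached 71.2, 90.9 and 103.7 CPM (counts scaled to library size with TMM normalization) in wt/wt replicates 1, 2 and 4 and 467.7, 443.9 and 717.3 CPM in fl/fl replicates 1, 2 and 4. The log2 fold change of *Mpo* was 2.60 (SE 0.16, n = 3 per genotype). The lowest fl/fl library thus lay far above the highest wt/wt library, and replicate 4 was the highest in both genotypes. The level of a gene in sorted bulk cells does not tell a change in the number of cells that express it from a change in the RNA per cell, and these cannot be told apart here.

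**Figure D1:**
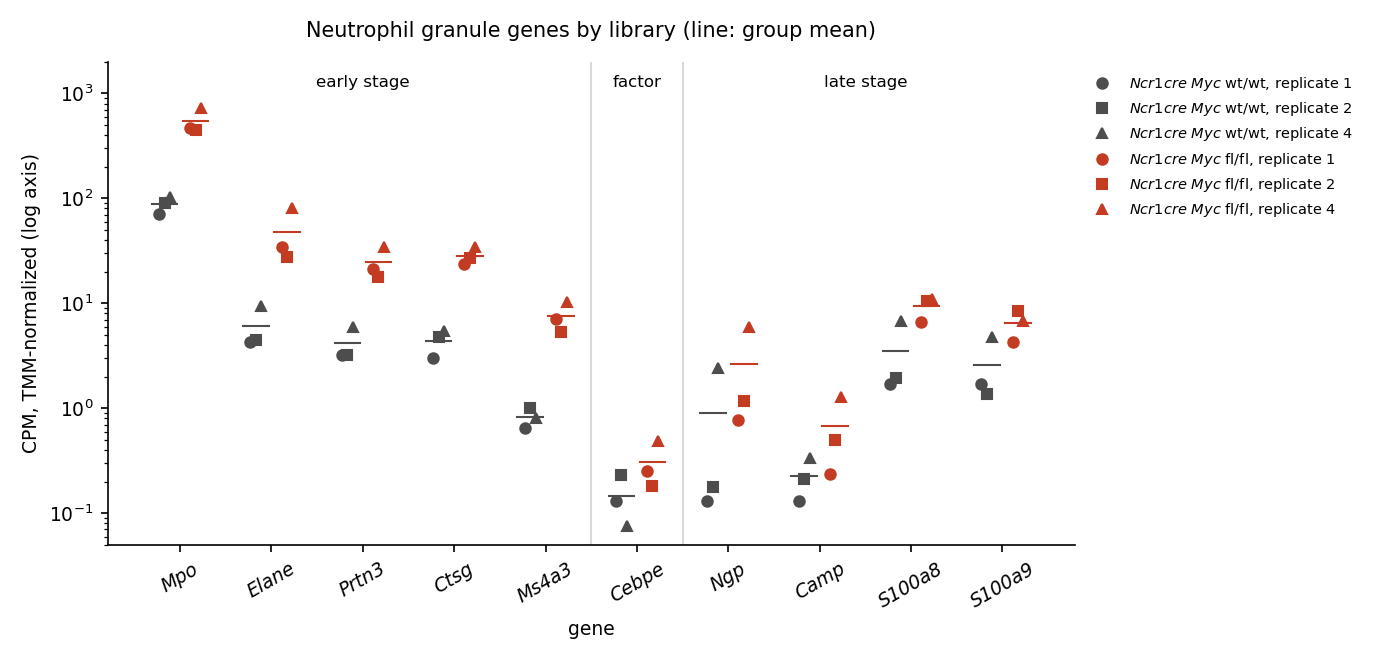
CPM (TMM-normalized, log axis) of the 10 genes in each library. Grey symbols are wt/wt and red symbols fl/fl, with circle, square and triangle for replicates 1, 2 and 4 and a line at the group mean. The groups are apart in the 5 early genes and overlap in the other 5 genes.

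Of the 3 serine proteases, *Elane* (chr10:79886247-79888215), which degrades elastin and bacterial proteins, showed the largest difference. *Elane* had 4.29, 4.48 and 9.47 CPM in wt/wt and 34.3, 27.7 and 81.4 CPM in fl/fl libraries, a log2 fold change of 2.90 (SE 0.19). Replicate 4 held more than the other libraries of its genotype in both groups. *Prtn3* (chr10:79874476-79883174), which encodes a protease closely related to elastase, had 3.25, 3.24 and 5.94 CPM in wt/wt and 21.4, 17.9 and 34.5 CPM in fl/fl libraries, a log2 fold change of 2.56 (SE 0.21). *Ctsg* (chr14:56099881-56102574), whose product cleaves after aromatic residues like a chymase, had 2.99, 4.73 and 5.4 CPM in wt/wt and 23.7, 27.0 and 34.6 CPM in fl/fl libraries, a log2 fold change of 2.70 (SE 0.21). For each of the 3 proteases the groups did not overlap.

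*Ms4a3* (chr19:11629496-11640851), the progenitor gene among the early ones, was the least abundant. *Ms4a3* had 0.65, 1.01 and 0.809 CPM in wt/wt libraries, of which replicate 1 rested on 5 counts, and 7.06, 5.36 and 10.3 CPM in fl/fl libraries. Its log2 fold change of 3.12 (SE 0.36) was the largest of the 10 genes over all libraries, and without replicate 4 it equalled that of *Elane* (2.77).

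The late genes were also higher on average in fl/fl mice, at a median log2 fold change of 1.58, but the genotypes overlapped in each of the 4. The overlap came from wt/wt replicate 4, which was the highest library of its genotype for all 4 late genes. *S100a8* (chr3:90668978-90670035) had 1.69, 1.95 and 6.81 CPM in wt/wt and 6.59, 10.6 and 11.1 CPM in fl/fl libraries, a log2 fold change of 1.66 (SE 0.36). *S100a9* (chr3:90692632-90695721), which encodes the partner of the S100A8 protein, had 1.69, 1.36 and 4.78 CPM in wt/wt and 4.30, 8.50 and 6.73 CPM in fl/fl libraries, a log2 fold change of 1.48 (SE 0.42). In both, fl/fl replicate 1 fell just below wt/wt replicate 4. These values depended on single replicates. Leaving out replicate 2 of both genotypes gave 1.23 for *S100a8* and 0.87 for *S100a9*, and leaving out replicate 4 gave 2.22 and 2.07.

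The granule protein genes of the late stage were near the limit of detection in 2 of the 3 wt/wt libraries. *Ngp* (chr9:110419747-110423012) had 0.13, 0.177 and 2.41 CPM in wt/wt libraries, which are 1, 10 and 158 counts, and 0.766, 1.17 and 5.98 CPM in fl/fl libraries. Its log2 fold change was 1.97 (SE 0.45), and replicate 4 stood above the other libraries in both genotypes. It was 2.64 (SE 0.86) without replicate 4 and 1.32 (SE 0.97) with no replicate block, that is, when libraries with the same replicate number were not compared within their pair. *Camp* (chr9:109847379-109849617) had 0.13, 0.213 and 0.336 CPM in wt/wt and 0.238, 0.494 and 1.29 CPM in fl/fl libraries, a log2 fold change of 1.50 (SE 0.60). For *Camp*, the single overlap was that of fl/fl replicate 1 with wt/wt replicate 4.

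*Cebpe* (chr14:54710360-54712174), the factor gene of the switch from early to late granules, was the least abundant of the 10 genes. It had 0.13, 0.23 and 0.0763 CPM in wt/wt and 0.255, 0.183 and 0.486 CPM in fl/fl libraries, and no library held more than 29 counts. Its log2 fold change of 1.09 (SE 0.84) was within the spread between libraries, and it was 0.07 without replicate 4 and 2.17 without replicate 2.

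In all, 5 of the 10 genes passed the threshold, all of them early and all higher in fl/fl libraries, where 1.28% of the 15474 genes tested passed it in that direction, 0.872% passed it in the other direction and 2.15% passed it in either. In the same 5 genes every fl/fl library was above every wt/wt library, which was so for 16.2% of the genes tested. The split into early and late was not kept by every setting, since DESeq2 added *Ngp*, *S100a8* and *S100a9*, no filter on low counts added *Ngp* and *S100a8*, leaving out replicate 4 added *S100a8*, and *Ms4a3* was lost without replicate 1 and with effective length offsets, which correct the counts for transcript length. Since this contrast served to choose the genes, nothing is read from these counts. Over all genes tested the median log2 fold change was 0.0144.

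**Figure D2:**
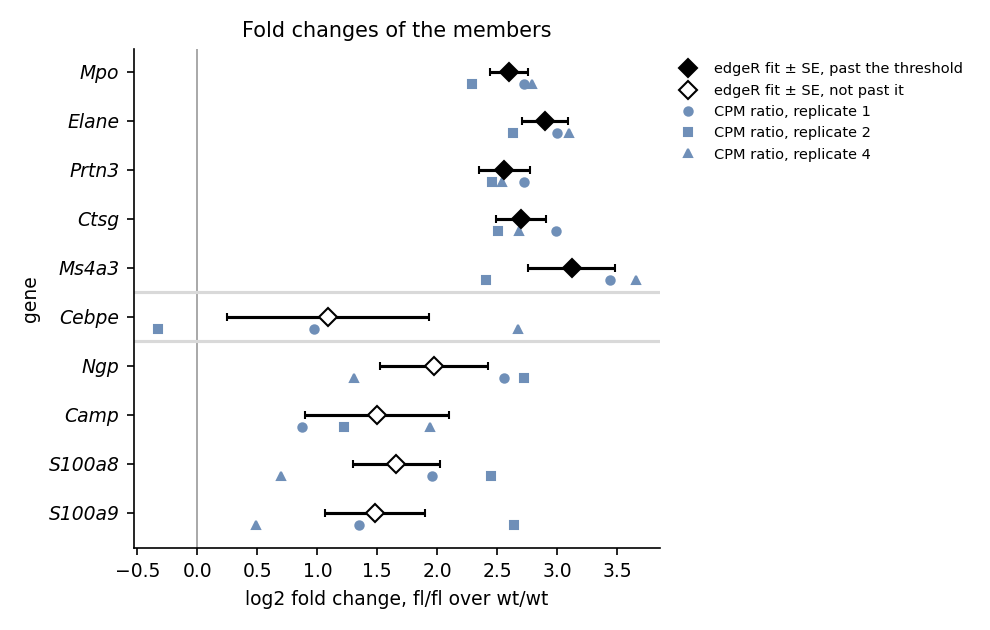
Log2 fold changes of the 10 genes, fl/fl over wt/wt. Diamonds with bars are the fitted value ± SE, filled where the threshold was passed, and blue symbols give the CPM ratio of the libraries with the same replicate number. The early genes lie between 2.56 and 3.12, and the late genes lie between 1.48 and 1.97 with wider bars.

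To compare early with late genes, levels were summed in TPM, which takes the length of the transcripts into account. The 5 early genes summed to 61.7, 88 and 108.1 TPM in wt/wt and to 514.3, 465.5 and 824.4 TPM in fl/fl libraries. The means were 86.0 ± 23.3 and 601.4 ± 194.7 TPM (SD, n = 3), a ratio of 7.0. The groups were well apart, and leaving out any single library gave ratios from 5.70 to 8.03.

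The 4 late genes summed to 12.1, 13.2 and 45 TPM in wt/wt and to 43.7, 74.4 and 78.3 TPM in fl/fl libraries. The means were 23.5 ± 18.7 and 65.5 ± 18.9 TPM (SD, n = 3), a ratio of 2.79. fl/fl replicate 1 lay just under wt/wt replicate 4, and without the latter library the ratio was 5.17.

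The sum of the 5 early genes thus exceeded that of the 4 late genes in every library. It did so by 5.09-, 6.66- and 2.40-fold in wt/wt and by 11.8-, 6.26- and 10.5-fold in fl/fl libraries. In wt/wt replicate 4 this rested on *Mpo*, which supplied 67.9 of the 108.1 TPM, against a late sum of 45 TPM. On the log2 scale the early to late ratio averaged 2.12 ± 0.76 and 3.20 ± 0.49 (SD, n = 3), a difference of 1.08. The genotypes overlapped, since fl/fl replicate 2 lay below wt/wt replicate 2. The difference also depended on single replicates, being 0.66 without wt/wt replicate 4, 0.56 without replicate 4 of both genotypes and 1.67 without replicate 2 of both.

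**Figure D3:**
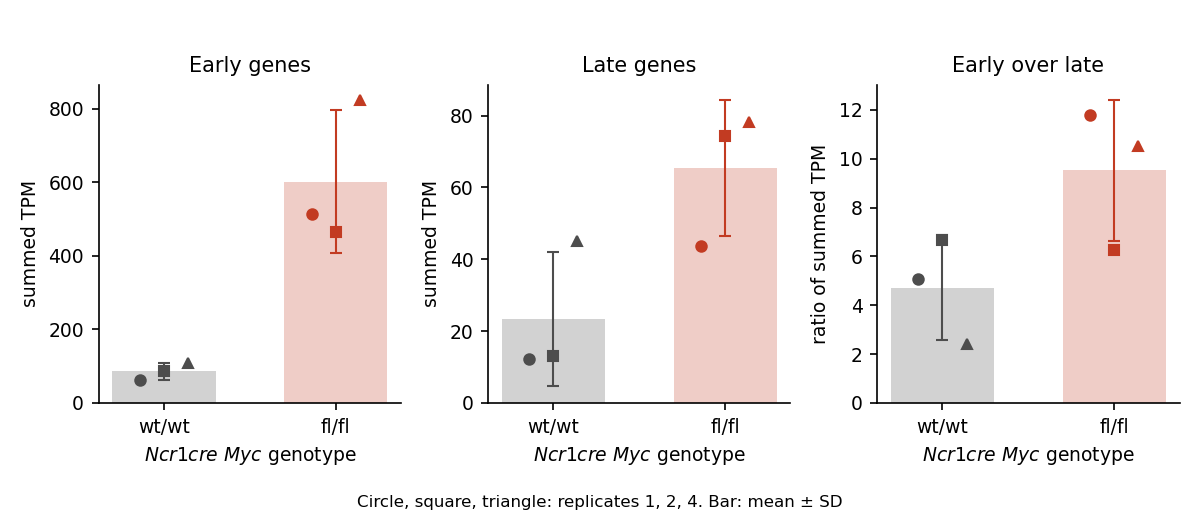
Summed TPM of the 5 early genes (left) and the 4 late genes (middle), and their ratio (right), in each library. Circle, square and triangle are replicates 1, 2 and 4, bars are means and error bars the SD over 3 libraries. The early sums are apart between genotypes, whereas the late sums and the ratio overlap.

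*Mpo* made up most of the early sum in all libraries. *Mpo* supplied 62.7 to 71.5% of it, *Elane* 9.37 to 18.6%, *Prtn3* 8.60 to 12.1%, *Ctsg* 7.08 to 9.84% and *Ms4a3* 1.16 to 1.85% in wt/wt and 1.94 to 2.35% in fl/fl libraries. The share of *Ms4a3* was the only one of the 5 that did not overlap between the genotypes. The share of *Elane* was highest in replicate 4 of each genotype, at 15.6% and 18.6%. In the late sum, *S100a8* and *S100a9* supplied 47.9 to 58.5% and 32.8 to 48.6%, and *Ngp* reached 6.35% and 9.56% in replicate 4 of the 2 genotypes against 1.20 to 2.25% in the other libraries. The share of *Ngp* was thus highest in replicate 4 of each genotype, like that of *Elane* in the early sum.

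By mean TPM, the genes could be ordered within each genotype. In fl/fl libraries, *Mpo* led with 392.9 ± 108.4 TPM, followed by *Elane* (90.7 ± 55.1), *Prtn3* (56.0 ± 18.4), *Ctsg* (49.0 ± 9.40), *S100a8* (35.8 ± 8.92), *S100a9* (24.7 ± 7.69), *Ms4a3* (12.8 ± 4.25), *Ngp* (3.31 ± 3.63), *Camp* (1.68 ± 1.36) and *Cebpe* (0.474 ± 0.24). Neighbours in this order from *Elane* to *Ms4a3* differed by less than the sum of their SDs, and so did *Ngp*, *Camp* and *Cebpe*. In wt/wt libraries *Mpo* led as well, with 58.2 ± 12.5 TPM, but *S100a8* came next with 12.5 ± 10.2 TPM, before *Elane* (10.6 ± 5.47), *S100a9* (9.38 ± 6.71), *Prtn3* (8.68 ± 3.93) and *Ctsg* (7.13 ± 2.44), which did not differ beyond their SDs. The place of *S100a8* before *Elane* came from wt/wt replicate 4 (24.3 against 16.9 TPM), since *Elane* was above *S100a8* in wt/wt replicates 1 (6.76 against 5.80 TPM) and 2 (8.25 against 7.36 TPM). By these SDs between libraries, *Mpo* was the one gene that stood clear of the next in both genotypes. Within single libraries other orders also held, since *Elane* was above *Prtn3* in every library.

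At the transcript level, most *Mpo* counts were assigned to a coding transcript that starts at position 87794209 of chromosome 11, with 23566, 20494 and 37105 estimated counts in the fl/fl libraries, and fewer to the transcript that starts at 87793581, with 3392, 3250 and 4876. The promoter sequence shown above ends just before the latter start. For *Prtn3*, a transcript with a retained intron received 558.3, 526.4 and 903.4 estimated counts in fl/fl libraries and the main coding transcript 628, 422 and 1130, so that the counts of this gene were divided between spliced and unspliced forms. *Elane*, *Camp*, *Ngp* and *Cebpe* have a single annotated transcript each.

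Whether other genes of the same pathways differed was asked with 4 lists, which were also written with earlier results of these libraries known. Of their 58 tested genes, 20 were higher in fl/fl libraries and none was lower by edgeR at the threshold above, against 1.28% and 0.872% of all genes tested. The number of higher genes fell when a replicate was left out and under other scalings, as it did over all genes tested. Without replicate 1 it was 3 of 59, against 49 of all 15723 genes. Without replicate 2 it was 6 of 61, against 88 of 15674. Scaling by library size only left 6 (*Cd24a*, *Ncf1*, *Gata2*, *Plac8*, *Clec12a* and *Muc13*), against 49 of all 15474 genes. Effective length offsets left 4 (the first 4 of these), against 24. Fewer libraries also make the threshold harder to reach, so a lost call alone does not show that a gene depended on the replicate left out. With limma-trend, *Retnlg*, *Ccl6*, *Cebpb* and *Csf2rb* did not pass. The calls given below for other genes of the 4 lists are therefore lost under both scalings, and the losses named gene by gene come on top of these.

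In the azurophil and serine protease handling list, 2 of 9 tested genes passed, and the median log2 fold change over the list was 0.61. *Lyz2*, the myeloid lysozyme, had 4.75, 4.79 and 7.55 TPM in wt/wt and 25.6, 26.3 and 21.7 TPM in fl/fl libraries (log2 fold change 2.02, SE 0.25, adjusted p = 0.00317). *Cd63*, a membrane protein of azurophil granules and of other lysosome-related organelles, passed as well (1.64, SE 0.25, adjusted p = 0.00579). Both missed the threshold without replicate 1 (1.94 and 1.47) and without replicate 2 (1.79 and 1.54). *Srgn* and *Ctsc*, which encode the proteoglycan that packs granule proteases and the enzyme that activates them and which NK cells also use for granzymes, were the most abundant genes of the list and had log2 fold changes of 0.25 (adjusted p = 0.4) and 0.16 (adjusted p = 0.56).

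In the specific and gelatinase granule list, 3 of 14 tested genes passed: *Hp* (haptoglobin, log2 fold change 2.83, SE 0.43, adjusted p = 0.0058), *Cd24a* (a surface sialoprotein, 2.39, SE 0.25, adjusted p = 0.00189) and *Slpi* (a protease inhibitor, 2.29, SE 0.31, adjusted p = 0.00387). *Hp* missed the threshold whichever replicate was left out (2.53 to 3.35) and *Slpi* without replicate 1 (2.41) or 2 (2.05), whereas *Cd24a* passed it under each of 9 alternative settings. *Slpi*, which restrains elastase, had 4.06, 3.31 and 4.27 TPM in wt/wt and 18.7, 22.8 and 20.5 TPM in fl/fl libraries. *Ltf* (lactoferrin), the classical specific granule gene, was too low to be tested, with at most 0.404 TPM outside replicate 4 and 1.59 and 5.13 TPM in replicate 4 of wt/wt and fl/fl mice. *Ltf* thus followed *Ngp* in being highest in replicate 4 of both genotypes. *Olfm4* was listed at 0 in all libraries, whereas *Cyba*, a subunit of the NADPH oxidase, and *Pglyrp1* were abundant in all of them (887.8 to 1481 TPM and 338.4 to 433.5 TPM).

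In the mature neutrophil list, 3 of 12 tested genes passed. *Ncf1*, an oxidase subunit, had 5.85, 8.41 and 9.14 TPM in wt/wt and 20.0, 28.8 and 27.5 TPM in fl/fl libraries (log2 fold change 1.61, SE 0.19, adjusted p = 0.00248). *Retnlg* (4.41, SE 0.71, adjusted p = 0.0072) and the chemokine gene *Ccl6* (3.24, SE 0.53, adjusted p = 0.00786) were lower in fl/fl replicate 4, at 0.687 and 3.32 TPM, than in fl/fl replicates 1 and 2, at 4.46 and 5.24 TPM for *Retnlg* and 17 and 22.7 TPM for *Ccl6*. Each of the 5 early granule genes was instead highest in fl/fl replicate 4. Without replicate 1, *Ncf1* (1.68), *Retnlg* (4.17) and *Ccl6* (2.78) missed the threshold, as did *Retnlg* (4.59) and *Ccl6* (2.91) without replicate 2. With no replicate block, *Retnlg* missed it as well (SE 0.97). *Ly6g*, the surface marker of neutrophils, did not exceed 0.534 TPM in any library, and *Cxcr1* and *Stfa1* were listed at 0 in all of them. *Mxd1*, a MAX partner, was the most abundant gene of the list (log2 fold change 0.33, adjusted p = 0.164), and *Padi4* the only tested one with a lower value (-1.29, adjusted p = 0.0123).

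The myeloid progenitor list held the largest number of genes past the threshold, 12 of 23. The 5 with the largest differences were *Csf2rb* (the shared β chain of cytokine receptors, log2 fold change 2.96, SE 0.48, adjusted p = 0.00727), *Igsf6* (2.89, SE 0.42, adjusted p = 0.00536), *Rab44* (2.46, SE 0.32, adjusted p = 0.00348), *Gata2* (a factor of progenitors, basophils and mast cells, 2.37, SE 0.25, adjusted p = 0.00189) and *Spi1* (PU.1, 2.23, SE 0.32, adjusted p = 0.00514). *Spi1* had 2.96, 2.83 and 4.87 TPM in wt/wt and 17.7, 16.9 and 13.6 TPM in fl/fl libraries. *Cebpa*, which directs granulocyte-monocyte progenitors, had 0.445, 0.240 and 0.220 TPM and 1.46, 1.15 and 1.27 TPM, without overlap, yet did not pass (2.15, SE 0.44, adjusted p = 0.0183), although it did with no replicate block (2.21), in DESeq2 (2.14) and with no filter on low counts (2.16). *Cebpb* (1.01, SE 0.16, adjusted p = 0.00689) and *Plac8* (1.36, SE 0.14, adjusted p = 0.00189) were the most abundant of the list and passed the threshold. *Plac8* passed it under each of the 9 alternative settings, whereas *Cebpb* missed it with no replicate block (0.95, SE 0.23), without replicate 1 (0.83) and without replicate 4 (1.05). Of the 5 with the largest differences, all missed it without replicate 1 (*Csf2rb* 2.53, *Igsf6* 2.61, *Rab44* 2.24, *Gata2* 2.25 and *Spi1* 1.95). *Igsf6* (3.24), *Rab44* (2.61) and *Spi1* (2.15) missed it without replicate 2, and *Csf2rb* (2.91) and *Igsf6* missed it without replicate 4.

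**Figure D4:**
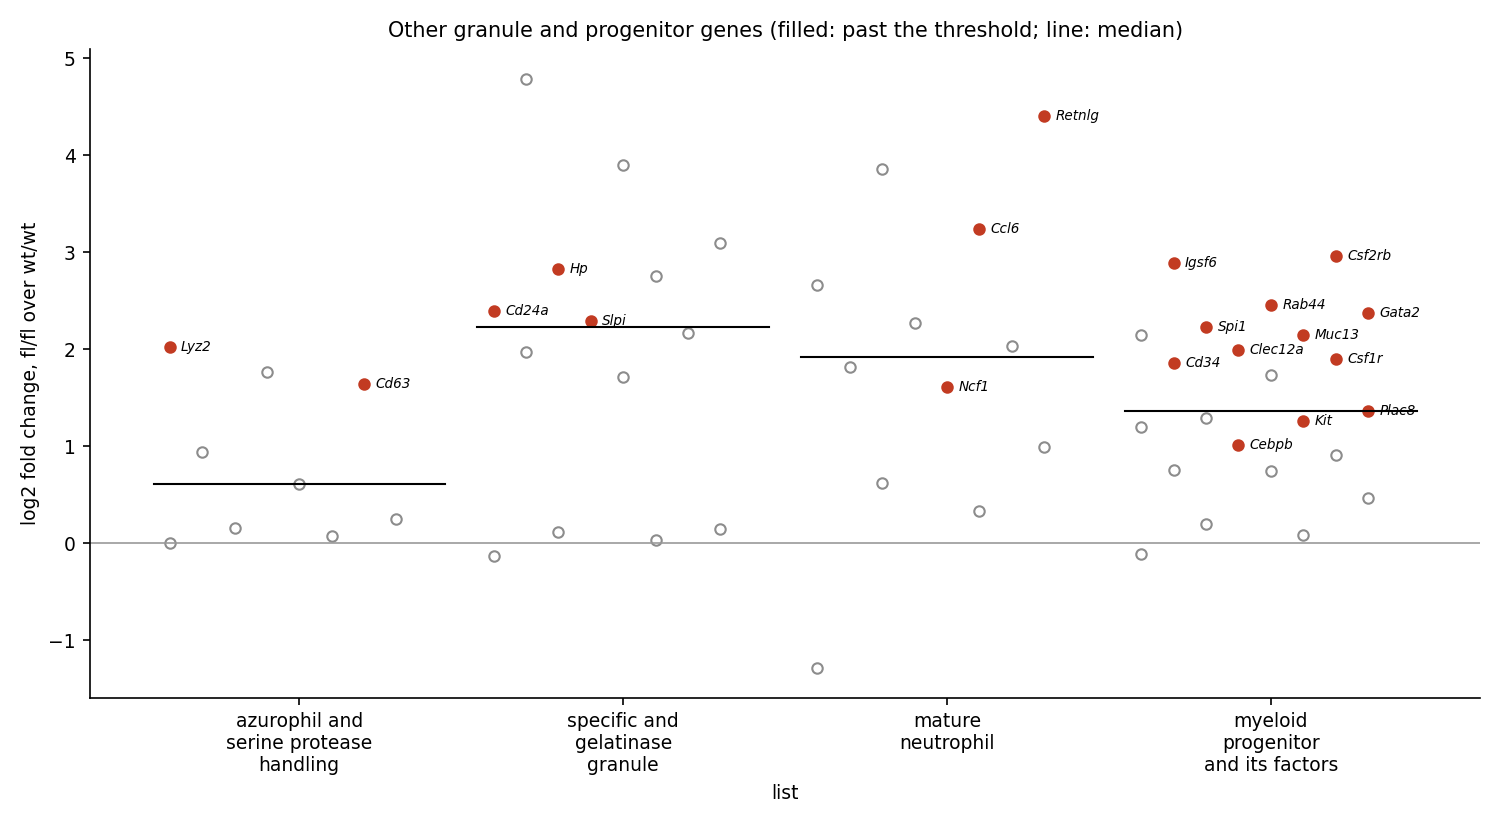
Log2 fold changes of the tested genes in the 4 lists of other granule and progenitor genes. Filled red circles passed the threshold and carry their names, open circles did not, and the black line is the median of each list (0.61, 2.23, 1.92 and 1.36 from left to right).

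Markers of other cell types were summed in the same libraries. Summed basophil and mast cell markers had 12.8, 17.9 and 17.8 TPM in wt/wt and 384.1, 448.5 and 158.4 TPM in fl/fl libraries, and 8 of 10 tested markers passed the threshold, among them *Prss34* (log2 fold change 5.20, adjusted p = 0.000773) and *Mcpt8* (5.0, adjusted p = 0.000236). fl/fl replicate 4 was the lowest of its genotype for these markers but the highest for each of the 5 early granule genes. Their order over the 3 fl/fl libraries was therefore not the same. In the summed dendritic cell, T cell and NK cell markers, fl/fl replicate 4 was the highest of its genotype, as in the early genes. Most of the dendritic cell sum in fl/fl libraries was *Irf8*, also a factor of NK cells. It had 684.2, 719.0 and 817.7 TPM of 1083, 1162 and 1181 TPM in fl/fl replicates 1, 2 and 4. That order therefore describes *Irf8* and cannot be read as one of dendritic cell markers in general. *Akr1c18* was listed at 0 in all libraries.

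The other marker lists differed by smaller ratios of summed TPM, in which abundant genes weigh most. By the median log2 fold change of the tested genes the order was another. It was 3.22 for erythroid, 2.31 for eosinophil and 2.24 for platelet markers, against 2.52 for basophil and mast cell markers. Monocyte and macrophage markers had 1.45, dendritic cell markers 1.08, and B cell, T cell and NK cell markers 0.87, 0.17 and 0.07. Eosinophil markers went from 0.429 to 1.95 TPM to 5.86 to 23.3 TPM (1 of 4 tested passed). That gene, *Prg2*, missed the threshold with no replicate block, without replicate 2, and under both other scalings. Monocyte and macrophage markers went from 892.0 to 1060 TPM to 1318 to 1632 TPM (4 of 12). Dendritic cell markers went from 487.4 to 598.8 TPM to 1083 to 1181 TPM (3 of 10). Of these, *Irf8* alone had a mean of 291.6 TPM in wt/wt and 740.3 TPM in fl/fl libraries, against list means of 539.0 and 1142 TPM. Erythroid markers had 731.1, 774.1 and 1464 TPM in wt/wt and 4221, 4434 and 2583 TPM in fl/fl libraries (2 of 10), and platelet markers 17.7 to 27.9 TPM and 44.2 to 130.1 TPM (1 of 6). Like the late genes, the erythroid markers were highest among wt/wt libraries in replicate 4. None of the tested markers passed for B cells (7 genes), T cells (9 genes, 1737 to 2455 TPM and 2006 to 2566 TPM) and NK cells (13 genes, 17299 to 18884 TPM and 20890 to 23004 TPM). The B cell markers had 1311, 566.5 and 569.9 TPM in wt/wt and 689.3, 761.2 and 589.2 TPM in fl/fl libraries. Their highest sum was thus that of wt/wt replicate 1, the library with the fewest counts. The part of such cells in the levels of the granule genes was not tested.

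**Figure D5:**
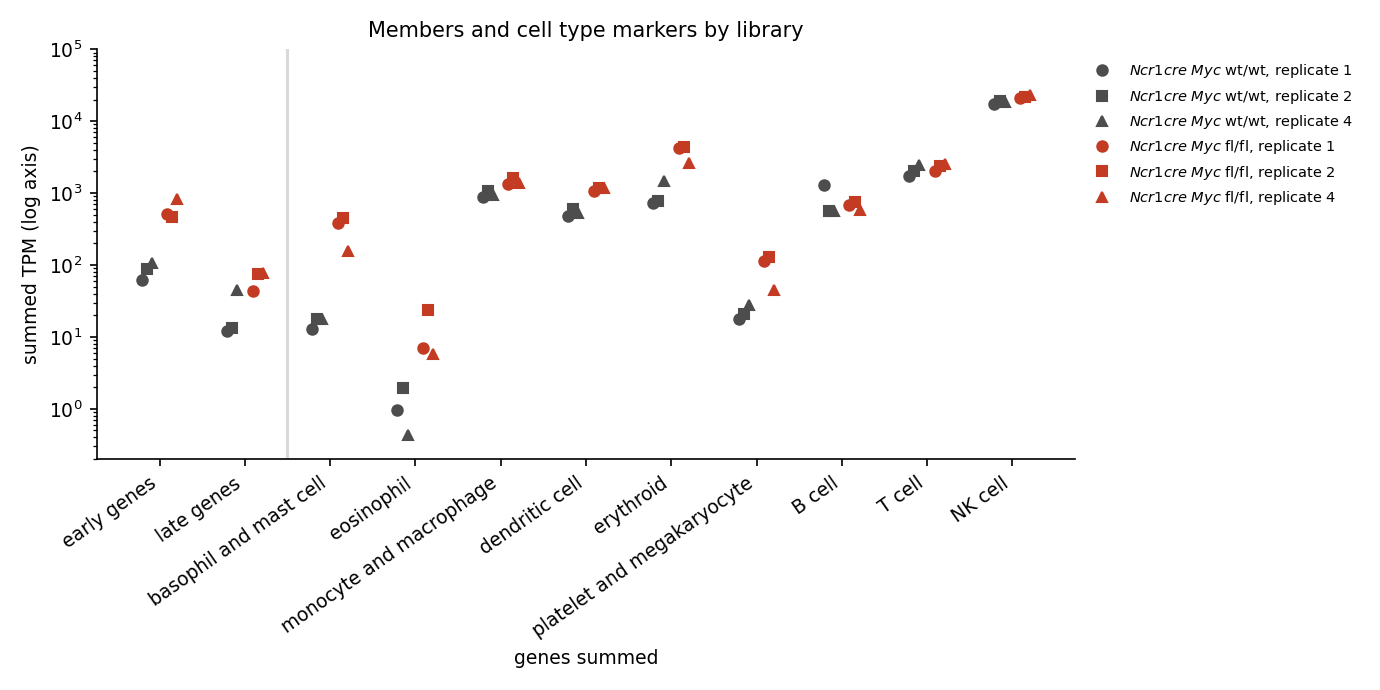
Summed TPM (log axis) of the early and late genes and of 9 lists of cell type markers in each library. Grey symbols are wt/wt, red symbols fl/fl, and circle, square and triangle are replicates 1, 2 and 4. Replicate 4 is the lowest red symbol in the basophil and mast cell, eosinophil, erythroid, platelet and B cell markers, and the highest in the early and late genes and in the dendritic cell, T cell and NK cell markers. In the red symbols, most of the dendritic cell sum is *Irf8*.

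The chromosomal neighbours of the 10 genes were compared as well. Within 50 kb of a member, 20 other protein-coding genes were tested, of which 4 were higher and none was lower at the threshold, against 1.28% and 0.872% of all genes tested. Without replicate 1 the only neighbour past the threshold was *Mcpt8*, and without replicate 2 there were 2, *Mcpt8* and *S100a6*. The median log2 fold change of the 20 was 0.17, against 0.0144 over all genes tested. *Elane* and *Prtn3* lie 3073 bases apart, and *Cfd*, 2638 bases from *Elane*, did not exceed 0.22 TPM. *Lpo*, the peroxidase gene 2015 bases from *Mpo*, did not exceed 0.0265 TPM. *Plppr3*, whose annotated span overlaps that of *Prtn3*, had a log2 fold change of 1.08 (adjusted p = 0.0337), and reads in the overlap could have been assigned to either gene.

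The 4 neighbours past the threshold include genes of other cell types. *Mcpt8*, a basophil protease gene, lies 14608 bases from *Ctsg*, and *Ms4a2*, which encodes the β chain of the IgE receptor, lies 5777 bases from *Ms4a3* (log2 fold change 2.07, SE 0.31, adjusted p = 0.00564). The remaining 2 were *Slc7a8* near *Cebpe* (2.14, adjusted p = 0.00713) and *S100a6* near *S100a8* (1.17, adjusted p = 0.00564). *S100a6* missed the threshold with no replicate block (1.24) and without replicate 4 (0.95) as well, *Slc7a8* with limma-trend, and *Ms4a2*, *Slc7a8* and *S100a6* with library size only and with effective length offsets.

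Across the 6 libraries the early genes had correlations (Pearson's r of log2 CPM) of 0.96 to 0.99 with each other, and *S100a8* and *S100a9* had 0.98. *Cebpe* reached at most 0.77 with any other member. These libraries share the genotype contrast that chose the genes, so the values describe likeness and carry no test. Among 15464 other genes, *Irf8*, a factor of monocyte, dendritic and NK cells, had the pattern most like the mean of the early genes (r = 0.9979), followed by *Fubp3*, *Pkp3*, *Smim3* and *Rhoc*. *Irf8* had 273.7, 297.2 and 303.8 TPM in wt/wt and 684.2, 719.0 and 817.7 TPM in fl/fl libraries (log2 fold change 1.28, SE 0.14, adjusted p = 0.00189). The genes most like the mean of the late genes were *Kcnd1* (r = 0.9956), *Trbv15*, *Ccn5*, *Rapgef3* and *Trbv12-2*. Of these only *Ccn5* passed the threshold (adjusted p = 0.00886, edgeR). *Kcnd1* held at most 36.6 estimated counts in any library, so its pattern is imprecise.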

How the data were processed

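The data comprise 3 RNA-seq libraries of BM CD27SP NK cells for *Ncr1cre Myc* fl/fl mice and 3 for their *Ncr1cre Myc* wt/wt controls. The libraries had been made with the SMART-Seq v4 kit and read single end. The authors deposited, for each of 100583 transcripts, an estimated count without normalization, a TPM value and a transcript length and effective length. The submitters' notes name Salmon and GRCh38, a human build, whereas the table columns are those of kallisto and the identifiers are those of mouse. Which tool made the tables was not settled here.

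Sums of the estimated counts per gene symbol were formed with GENCODE M21 (GRCm38), which held 100239 of the transcripts and left out 0.129 to 0.169% of the counts, and were rounded. Genes kept by filterByExpr (15474) were normalized by TMM and compared with the quasi-likelihood test of edgeR 4.0.16 in R 4.3.3. The replicate number entered as a block, since the study describes this comparison as paired. Benjamini-Hochberg adjustment covered all tested genes, and the threshold was an adjusted p below 0.01 with a log2 fold change of 0.5 or more in either direction. Deviations of libraries with the same number correlated by -0.0121, -0.0198 and 0.0505, under the limit of 0.1, and a pairing of mice by number is thus not shown. Replicates differed beyond counting noise. Nothing says that they came from separate mice, so p-values measure the spread between these libraries. DESeq2 1.42.0, limma-trend 3.58.1 and the alternatives given in the closing section were run as well.

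The members and the lists were chosen with earlier results of these data known. The text names all members, the genes of each pathway list past the threshold (at most the 5 largest) and the 2 most abundant, *Myc*, *Itgam* among the sort gate genes (another item of the gate is not reported here), the genes most like the members, and neighbours within 50 kb. *Ltf*, *Ly6g*, *Cebpa*, *Padi4*, *Cfd*, *Lpo* and the markers named were picked after their values were seen. In *Ncr1cre Myc* wt/wt replicate 1, the lower depth limits the precision of genes with few counts.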

Additional observations from a re-analysis of the deposited data

How the results depend on the processing

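The numbers of genes higher and lower in *Ncr1cre Myc* fl/fl libraries were 198 and 135. They were 203 and 184 with no replicate block, 642 and 529 in DESeq2, 524 and 378 when low counts were not filtered, 49 and 25 with library size only, 24 and 6 with effective length offsets, and 689 and 523 at an adjusted p below 0.05 with no fold limit. Limma-trend and the largest adjusted p of the 3 methods each left 78 lower genes. Leaving out replicates gave 49 to 162 higher and 10 to 114 lower genes. Of the members, whose count is a description, 5 passed, against 8 in DESeq2, 7 with no filter, 4 with effective length offsets, and 4 to 6 when replicates were left out. The other granule and progenitor genes past the threshold were 20 higher and 0 lower, against 31 and 1 with no filter, 6 with library size only, 4 with effective length offsets, 35 and 1 at an adjusted p below 0.05, and 3 to 17 and 0 to 1 when replicates were left out. DESeq2 found 1 lower gene as well, and in each case it was *Padi4*. Neighbours within 50 kb past the threshold were 4, against 1 with library size only, 1 with effective length offsets, and 1 to 3 when replicates were left out, which was chosen after seeing the data.

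The early median log2 fold change was 2.59 to 2.81 when replicates were left out and 2.64 with no replicate block. The late median was 1.40 to 2.14 and 1.34. The ratio of summed TPM was 5.70 to 8.03 for the early genes and 2.25 to 5.17 for the late genes without single libraries, which was chosen after seeing the data. The early to late log2 ratio differed by 0.56 to 1.67 when replicates were left out, by 0.96 in CPM and by 1.26 as a mean of logs. No fold change of a member changed sign in 90 alternative values. Of 279 such values of 31 other genes, 93 lost the threshold and 5 reached it. For *Cebpe*, *Ngp* and *Camp*, depth limits the statement, since *Ncr1cre Myc* wt/wt replicate 1 held 1 count of each. Which cells held the granule transcripts was not tested.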

Other observations

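The locus of *Ctsg* on chromosome 14 also holds chymase and granzyme genes. *Cma1*, a mast cell chymase gene, had 22.7, 26.9 and 19.9 TPM in *Ncr1cre Myc* wt/wt and 8, 8.26 and 5 TPM in *Ncr1cre Myc* fl/fl libraries (log2 fold change -1.84, SE 0.22, edgeR, adjusted p = 0.00253), so that it was lower where *Ctsg* and *Mcpt8* were higher. It no longer passed the threshold without replicate 1 (-1.90), without replicate 2 (-1.89) or with effective length offsets (-1.81). *Gzmb* had 193.4, 185.0 and 157.0 TPM and 486.9, 356.2 and 1495 TPM (1.73, SE 0.37, adjusted p = 0.0216), and without replicate 4 its log2 fold change was 1.03 and passed, as it did with no filter on low counts (1.75). *Ncr1cre Myc* fl/fl replicate 4 held 57.1 TPM of *Gzmd*, 24.5 TPM of *Gzme* and 1.76 TPM of *Gzmf*, which were listed at 0 in the other 5 libraries. These granzymes are close paralogs, and how reads were divided among them is uncertain. *Mcpt1*, *Mcpt2* and *Mcpt4* were listed at 0 in all libraries. These genes were picked from a list of the locus and no cause was tested.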
